A study of Mus musculus with 4 samples.

Results

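Tcfcp2l1, Prdm14 and Gbx2 are transcription regulators of the naive pluripotent state, the condition in which mouse embryonic stem (ES) cells resemble the early epiblast. They were chosen by name, as the probes that supplementary gene tables of the study pair with these symbols, and each was found with 1 probe. These are 3 of the 25030 genes for which the authors deposited a processed value. The tables held here name 5619 of those genes.

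B6R(5) ES cells of the C57BL/6 strain were grown without feeders and treated for 48 hr with 0.2% DMSO alone (control), or with the same DMSO and the FGF receptor (FGFR) inhibitor PD173074, the MEK inhibitor PD98059 or the glycogen synthase kinase (GSK) inhibitor BIO. The Methods give 100 μM, 25 μM and 2 μM for these compounds, while the list of data sets prints the same numbers in mM. Each of the 4 conditions had 1 array, on which Cy3 carried the ES cell RNA and Cy5 carried a reference that the labels describe as a universal pool of RNA from mouse cell lines. For other samples of the study the Methods add RNA of MC1 cells to the reference. For the inhibitor experiment they refer back to the earlier description of RNA processing, without naming the reference again. Whether MC1 RNA was part of the reference here is therefore not certain, which bears on every level given against it. Dyes were not exchanged. Since every condition rests on 1 array, and each member on 1 spot per array, no difference has a replicate check and no test was made.

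In naive ES cells, LIF acts through STAT3 to maintain self-renewal, whereas FGF signalling through MEK and ERK drives exit from that state. Inhibition of GSK3 relieves repression by TCF3 of pluripotency genes, and inhibitors of MEK and GSK3 together are widely used to hold cells in the naive state. Tcfcp2l1 and Gbx2 are known targets of LIF and STAT3 that sustain self-renewal, and Prdm14 represses FGF receptor signalling and the de novo DNA methyltransferases.

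All 3 genes lie on chromosome 1. In the RefSeq annotation of GRCm38.p6, Tcfcp2l1 now carries the symbol Tfcp2l1 and lies between the coding genes Clasp1 and Gli2, and Prdm14 lies between Slco5a1 and Ncoa2. Coordinates are not given, because the array files mark the probes as unmapped. The probes are 60 bases long, and no other probe of the array shares a stretch of 20 bases with any of them on either strand. The first 30 bases of each probe are shown to identify what was hybridised, and which exon or untranslated region they come from was not determined.
Tcfcp2l1, probe Z00052492-1: aagtcttgcttacttaccatgctcttccat
Prdm14, probe Z00026609-1: gagaagcccttcaagtgcaagcattgtggt
Gbx2, probe Z00005313-1: caaatctctctccttacactttccagatga

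The first question was whether the regulators were expressed above the reference. All 3 genes were at least 2-fold above the reference on all 4 arrays, as were 2531 of 16229 genes whose Cy3 passed the background flag on every array, or 15.6%. Both channels of the 3 spots were well above background on each array by the flag of the scanner software, and none was saturated. A ratio is given as log2 of Cy3 over Cy5 after background correction and loess normalization within the array. A log2 change is the difference of such ratios, inhibitor minus control, and the 3 comparisons share the control array. The spread given beside a change is the robust SD of the changes of genes with similar Cy3 signal, which holds true changes as well as error.

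Of 22 listed ES cell markers, 2 have a named probe. Zfp281, a zinc finger factor of ES cells, had log2 ratios of 0.94, 0.86, 0.86 and 0.86 on the control, FGFR, MEK and GSK inhibitor arrays. Nr5a2, a nuclear receptor that activates Pou5f1, had Cy3 well above background on all arrays, with processed signals of 408, 604, 492 and 799, but Cy5 was not well above background on any of them, so its ratios are left out here. Pou5f1, Sox2 and Nanog were not analysed here, so the label of the cells was checked only on these genes and the members.

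Tcfcp2l1 encodes a factor of the CP2 and grainyhead family. Its mean Cy3 intensity was 7397 ± 173 (SE over 61 to 65 pixels) on the control array, and 14099 ± 335, 15248 ± 341 and 16918 ± 417 on those for FGFR, MEK and GSK inhibition, over a local background of 37.5 to 40.5. The Cy5 intensity of the same spot was 1592 ± 37.8 on the control array and 2159 ± 52.7, 2175 ± 48.2 and 2511 ± 64.9 on the arrays with FGFR, MEK and GSK inhibitor. Thus both channels were lowest on the control array, and Cy3 differed from it by more than Cy5 did. The log2 ratio was 2.97 on the control array and 3.39, 3.37 and 3.38 on the FGFR, MEK and GSK inhibitor arrays, or 7.83-fold and 10.5-fold, 10.3-fold and 10.4-fold above the reference.

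The ratio of Tcfcp2l1 was therefore higher on each inhibitor array than on the control array, by 0.42 for FGFR (spread 0.20), 0.40 for MEK (spread 0.15) and 0.41 for GSK inhibition (spread 0.22). An increase of that size or more was seen in 5.04%, 2.01% and 6.62% of the genes measured in these comparisons. In the ratio, the inhibitor arrays did not differ among themselves beyond the spread, since the values with FGFR and MEK inhibitor differed by 0.018 (spread 0.14) and those with FGFR and GSK inhibitor by 0.0096 (spread 0.22). A low value on the control array and a high value with each inhibitor cannot be told apart with 1 control array.

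In Cy3 alone, quantile normalized between arrays without use of the reference, Tcfcp2l1 was higher by 0.76, 0.76 and 1.10 for FGFR, MEK and GSK inhibition. Increases at least as large were found in 1.96%, 0.202% and 0.692% of genes. In this measure the value with GSK inhibitor passed 2-fold, whereas the ratio did not, and the array with GSK inhibitor stood above the others, with FGFR minus GSK inhibitor at -0.34 (spread in Cy3 alone 0.22), MEK minus GSK inhibitor at -0.33 (spread 0.18) and FGFR minus MEK inhibitor at -0.0069 (spread 0.15). The processed Cy5 signal, from the same reference RNA, was also higher than on the control array, by 0.40, 0.51 and 0.80 on the log2 scale, and the ratio holds the difference between the channels.

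Prdm14 encodes a PR domain zinc finger protein that is also needed to form primordial germ cells. Its Cy3 intensity was 429 ± 5.37 (SE over 59 to 63 pixels) in the control, 833 ± 7.33 after FGFR inhibition, 641 ± 5.26 after MEK inhibition and 450 ± 6.45 after GSK inhibition, over a background of 35.0 to 41.0. The Cy5 intensity was 159 ± 4.30, 189 ± 3.92, 199 ± 4.43 and 176 ± 4.35 on these arrays. The log2 ratio was 2.20 in the control, and 2.80, 2.29 and 2.04 after inhibition of FGFR, MEK and GSK. The array with FGFR inhibitor thus had the highest Cy3 signal and the highest ratio. In the ratio, MEK inhibitor and then control came next, and the ratios with MEK and GSK inhibitor differed by 0.25, little more than the spread of 0.23.

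Against the control, the log2 change of Prdm14 was 0.60 with FGFR inhibitor (spread 0.22), and an increase of that size or more was seen in 2.64% of genes. It was 0.10 with MEK inhibitor (spread 0.16) and -0.16 with GSK inhibitor (spread 0.30), both within the spread. The sign of the change with MEK inhibitor turned with the processed signals of the scanner software, to -0.070. In Cy3 alone that change was 0.26, beyond the spread of 0.18 in this measure, and median centring of the ratio also made it 0.26. The processed Cy3 signal gave 0.43. With GSK inhibitor the change was 0.0053 in Cy3 alone. The ratio with FGFR inhibitor exceeded that with MEK inhibitor by 0.50 (spread 0.19) and that with GSK inhibitor by 0.76 (spread 0.27). These differences between inhibitors were 0.62 and 0.80 with the processed signals and 0.50 and 0.76 in Cy3 alone. Prdm14 was thus highest with FGFR inhibitor in all of these measures.

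Gbx2 encodes a homeobox factor best known for its part in placing the boundary of midbrain and hindbrain. Its Cy3 intensity was 2342 ± 55.5 (SE over 59 to 65 pixels) in the control, 530 ± 10.8 after FGFR inhibition, 1844 ± 39.3 after MEK inhibition and 2379 ± 52.7 after GSK inhibition, over a background of 35.0 to 39.0. The Cy5 intensity was 236 ± 5.14, 101 ± 2.88, 191 ± 5.61 and 258 ± 6.71 on these arrays, over a background of 44.0 to 48.0. Both channels were lowest on the array with FGFR inhibitor, followed by that with MEK inhibitor. The log2 ratio was 4.01 in the control, and 3.03, 3.79 and 3.79 after inhibition of FGFR, MEK and GSK, or 16.1-fold, 8.19-fold, 13.8-fold and 13.9-fold above the reference. With the processed signals of the scanner software these levels were 24.7-fold, 21.7-fold, 23.0-fold and 21.1-fold, so that the array with GSK inhibitor was then the lowest.

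With the offset of 50 in background correction, the ratio of Gbx2 after FGFR inhibition had a log2 change of -0.98 (spread 0.26). A decrease of that size or more was seen in 0.673% of genes at this offset. The study reported Gbx2 as upregulated by each of these inhibitors. In the ratio, the direction with each inhibitor is opposite to that, though within the spread for GSK inhibition. The ratio of processed signals gave -0.19, -0.10 and -0.23 for FGFR, MEK and GSK inhibition. Each was smaller than its error of 0.67 to 0.68 in the error model of the scanner software. Median centring made the value with FGFR inhibitor -1.01, past 2-fold, whereas an offset of 16 in place of 50 made it -0.63. The size of this decrease thus depended on the offset. On the array with FGFR inhibitor the Cy5 intensity of the spot was only 101, over a local background of 45.5. How much of the decrease came from the offset was not tested. The changes with MEK and GSK inhibitor were -0.22 (spread 0.16) and -0.22 (spread 0.27), of which the latter lies within the spread, and median centring made the former -0.062. In Cy3 alone the change with FGFR inhibitor was -2.34, or 5.06-fold lower, and of 16797 genes 2, including Gbx2 itself, had a decrease of that size or more. With MEK inhibitor it was -0.66 in Cy3 alone, with such a decrease in 0.249% of genes, and with GSK inhibitor it was -0.093. The sign of the latter turned in the processed Cy3 signal, at 0.0057.

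The size of the Gbx2 value with FGFR inhibitor depends on the reference channel as well as on the offset. From control cells to cells with the FGFR inhibitor the processed Cy3 signal went from 8670 to 1806 and the processed Cy5 signal from 350 to 83.3, changes of -2.26 and -2.07 on the log2 scale. Among 18191 genes with Cy5 well above background on both arrays, Gbx2 was the only 1 with a Cy5 decrease of that size. Increases were not part of this count. A large Cy3 change without a like change in the ratio was not seen in Gbx2 alone. With GSK inhibitor, 2210409E12Rik changed by 2.02 in Cy3 alone and by -0.26 in the ratio of processed signals. Because both channels were lower by nearly the same factor, the ratio of processed signals gave a change of only -0.19, smaller than its error of 0.67 in the error model of the scanner software. Why both channels were lower together was not tested.

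By design, Cy5 measures the same reference RNA on each of the 4 arrays. Over the 17837 genes whose Cy5 passed the background flag throughout, the median range of the processed Cy5 signal was 0.22 on the log2 scale. The range was 0.80 for Tcfcp2l1, 0.50 for Prdm14 and 2.31 for Gbx2, and a range at least as wide was found in 1.93%, 8.26% and 0.0505% of genes. After quantile normalization of Cy5 the ranges were 0.67, 0.19 and 1.35, beside a median of 0.13 over the same genes, and a range at least as wide as that of Prdm14 was then found in 21.4% of genes. The reference signals of all 3 spots thus varied more than that of the median gene, for Prdm14 by little in the latter measure. Cy5 was lowest on the control array for Tcfcp2l1 and Prdm14 and on the array with FGFR inhibitor for Gbx2. For Tcfcp2l1 and Gbx2 the arrays had the same order in processed Cy3 and processed Cy5. For Prdm14 they did not, as Cy3 was highest with FGFR inhibitor and Cy5 with MEK inhibitor. The Cy5 values thus cannot be taken as repeats that are independent of Cy3, and the reason was not tested.

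**Figure D1:**
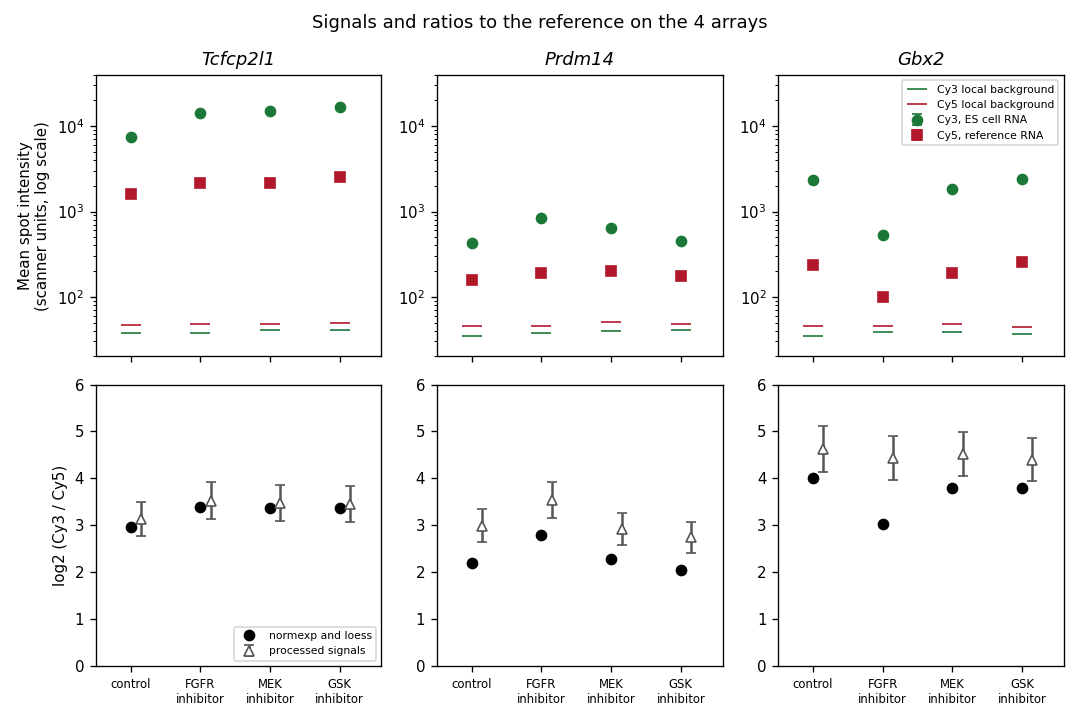
Upper row, mean intensity of the spot of each gene on the 4 arrays in scanner units on a log axis, with Cy3 for ES cell RNA as circles, Cy5 for reference RNA as squares and the local background as short lines; bars, mostly smaller than the symbols, are the SE over pixels of the spot. Lower row, log2 ratio of Cy3 to Cy5 after normexp correction and loess (filled circles, no error bar) and of the processed signals (triangles, with the error given by the scanner software), where Tcfcp2l1 is lowest on the control array at 2.97, Prdm14 highest with FGFR inhibitor at 2.80 and Gbx2 lowest with FGFR inhibitor at 3.03 in the filled circles.

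At the threshold of 2-fold in the ratio, 0 of the 3 genes were changed with FGFR inhibitor, beside 1.39% of 16797 genes measured on both arrays. With MEK inhibitor the counts were 0 of 3 beside 0.0832% of 16837 genes, and with GSK inhibitor 0 of 3 beside 1.43% of 16469 genes. In Cy3 alone, Gbx2 passed 2-fold with FGFR inhibitor, where 1.61% of genes did so, and Tcfcp2l1 passed it with GSK inhibitor, where 1.87% did. With MEK inhibitor no member passed it in Cy3 alone, beside 0.0713% of genes. The error model of the scanner software gives the change in the ratio of processed signals an error of 0.48 to 0.68 for these spots, and of the 9 changes only that of Prdm14 with FGFR inhibitor, 0.55 with an error of 0.52, exceeded it.

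**Figure D2:**
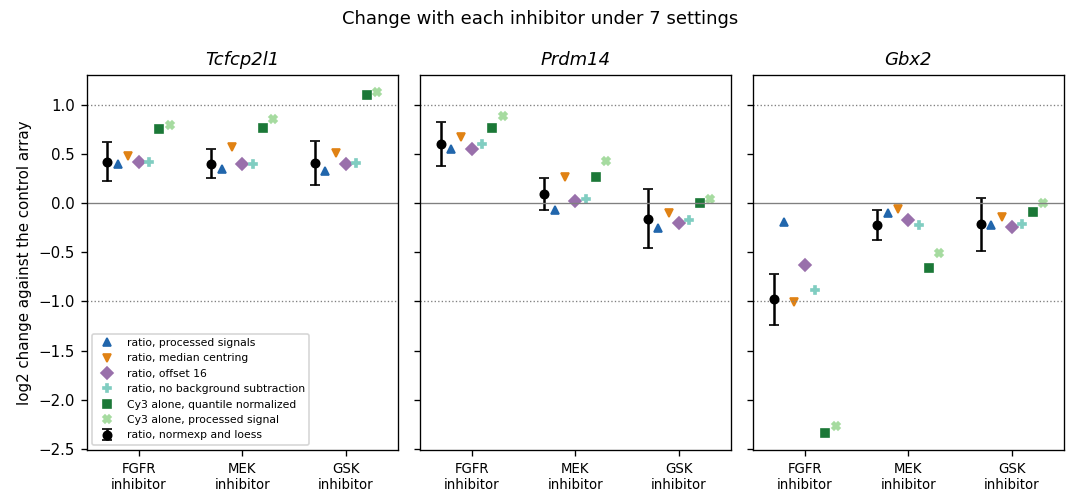
Log2 change of each gene with each inhibitor against the control array under 7 settings, with the ratio after normexp and loess in black and its bar showing the robust SD of the change among genes of similar Cy3 signal; the solid line marks no change and the dotted lines mark 2-fold. Tcfcp2l1 is above 0 with every inhibitor in all settings drawn, whereas Gbx2 with FGFR inhibitor runs from -0.19 with the processed signals to -2.34 in Cy3 alone.

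The same measures were taken for lists of signalling pathway, family, pluripotency, lineage and housekeeping genes. Of 135 genes in these lists other than the members, 33 have a named probe, and 31 were measured in each comparison. Of these, 1 was changed at least 2-fold by FGFR inhibition, 0 by MEK inhibition and 0 by GSK inhibition. Their median log2 change was -0.081, 0.067 and -0.056, and that of all genes measured was -0.019, -0.011 and -0.0031. In the pathway, partner and family lists alone, 20 of 86 genes were measured, 0 were changed at least 2-fold in any comparison, and the medians were -0.074, 0.067 and -0.061.

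Among signalling genes upstream of the members, 2 of 11 of the LIF and STAT3 list were measured. Stat4, a transcription factor activated by cytokine receptors, had log2 changes of 0.53, 0.25 and -0.42 for FGFR, MEK and GSK inhibition. For the FGF and MEK list, with 4 of 23 genes measured, the median change was -0.11, -0.057 and 0.010. Map2k1ip1, a scaffold of MEK and ERK, had changes of -0.63, -0.26 and -0.68, whereas the adaptor Gab1 had -0.01, 0.05 and 0.09. Of the GSK3 and Wnt list 7 of 17 genes were measured, and none was changed at least 2-fold. Its medians were -0.075, 0.067 and -0.056.

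Of the pluripotency genes, Zfp281 had log2 changes of -0.08 with each inhibitor. For Nr5a2, whose Cy5 was not well above background, Cy3 alone is given, with changes of 0.36, 0.04 and 0.64 for FGFR, MEK and GSK inhibition, and the ratio with MEK inhibitor turned sign between settings, from 0.19 to -0.52 with the processed signals. The list of PRDM14 partners and DNA methylation had 5 of 17 genes measured, with medians of 0.15, 0.079 and 0.013. The polycomb methyltransferase Ezh2 had changes of 0.07, 0.07 and -0.12, the maintenance DNA methyltransferase Dnmt1 had 0.15, 0.22 and 0.12, and the deacetylase Hdac1 had 0.38, 0.08 and 0.24. Within the families of the members, Ubp1 of the CP2 family had changes of -0.09, 0.12 and 0.11 and Prdm4 of the PRDM family had -0.23, -0.12 and -0.13. The 6 of 10 housekeeping genes measured had medians of -0.12, -0.031 and -0.076. With GSK inhibitor members lay on both sides of 0, and Rpl13a, Ppia and Ywhaz had log2 changes of -0.43, -0.41 and 0.35, about as large as that of Tcfcp2l1.

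Of 18 formative and lineage genes, 5 have a named probe and 3 were measured in each comparison. Eya1, a phosphatase and coactivator of placode and kidney development, was the list gene changed at least 2-fold with FGFR inhibitor, with log2 changes of 1.02, 0.24 and 0.75. The endoderm factor Sox17 had -0.17, 0.11 and -0.37, and the neural factor En1 had -0.13, -0.12 and 0.71. Cy3 of Lhx9 was not well above background on any array, and that of Pax3 was above it on 1.

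Markers of other cell types were read in the same way. For 9 fibroblast genes, 6 have a named probe, and their summed processed Cy3 signal was 21744 on the control array and 31566, 31861 and 31556 with FGFR, MEK and GSK inhibitor. Most of it came from Fn1, which encodes fibronectin and had log2 changes of 0.40, 0.38 and 0.36. Col3a1 and Col6a3, which encode fibrillar and beaded-filament collagens, had log2 ratios of -7.19 and -6.90 on the control array, far below the reference. Col3a1 had log2 changes of -0.16, -0.25 and -0.07, opposite in sign to Fn1, and Col6a3 had 0.21, 0.21 and 0.33, with the sign of Fn1. The list medians were 0.21, 0.028 and 0.24, and Cy3 of Col5a2 was not well above background on any array. The sum, through Fn1, was thus lowest on the control array, as Tcfcp2l1 was, and its part in the Tcfcp2l1 values was not tested. The summed Cy3 signal of 3 mesoderm and muscle genes, of 7 listed, was 2545, 5283, 3778 and 1417 on the control, FGFR, MEK and GSK inhibitor arrays, mostly from Msc, a repressor of myogenic genes. The high sum with FGFR inhibitor was that of Msc alone, whose log2 change there was 1.09 in Cy3 alone, 0.30 in the ratio and -0.19 in the ratio of processed signals. Its ratios were 3.18, 3.48, 3.22 and 2.58, highest with FGFR inhibitor as those of Prdm14 were, and its part in the Prdm14 values was not tested. Des, the muscle intermediate filament gene, had a log2 change of -0.38 there and Myog, a myogenic factor, -0.07, and the list median was -0.071. For endoderm 1 of 5 markers, Sox17, was measured, with a processed Cy3 signal of 612, 506, 671 and 488, and for 4 of 7 neural markers the sum was 425, 294, 411 and 521, with members that went opposite ways. From the control to the GSK inhibitor array the processed Cy3 signal of En1 went from 172 to 360 and that of Pou3f3, the brightest of them in the control, from 235 to 99.4.

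Listed genes on each side of the members on chromosome 1 were also examined, 5 on either side. Around Tcfcp2l1, Cy3 passed the flag on all arrays for 8 of 10 neighbours, and none was at least 2-fold above the reference on all of them. Their log2 changes ranged from -0.86 to 0.63 after FGFR, from -0.079 to 0.35 after MEK and from -1.68 to 0.24 after GSK inhibition. The lowest value was that of Inhbb, which encodes the activin beta B subunit, and the adjacent genes Clasp1 and Gli2 had 0.24 and -0.09 with GSK inhibitor. The change of Tcfcp2l1 lay above this range with MEK and GSK inhibitor and within it with FGFR inhibitor.

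Around Prdm14, 7 of 10 neighbours were well above background on all arrays, and 1 of these, A830018L16Rik, was at least 2-fold above the reference on all of them. The log2 changes ranged from -0.32 to 0.49, from -0.40 to 0.24 and from -0.51 to 0.35 for FGFR, MEK and GSK inhibition. Cy3 of Slco5a1, the adjacent transporter gene, was not well above background on any array, and Ncoa2, a nuclear receptor coactivator on the other side, had log2 changes of 0.02, 0.01 and -0.07. Cy5 of A830018L16Rik was not well above background on any array, so its ratios, among them the highest change with FGFR inhibitor, rest on a dim reference, and in Cy3 alone its changes were 0.39, 0.08 and -0.25. Around Gbx2, 5 of 10 neighbours were well above background on all arrays, of which 2, Sh3bp4 and Cops8, were at least 2-fold above the reference on all of them. Both adjacent listed genes, 4933400F21Rik and Asb18, were above background in Cy3 on none. The log2 changes of the 5 measured ranged from -0.042 to 1.5 with FGFR inhibitor, from -0.072 to 0.29 with MEK inhibitor and from -0.18 to 1.25 with GSK inhibitor. Cxcr7, a chemokine receptor gene 3 listed genes away, had log2 changes of 1.5, 0.29 and 1.25 for FGFR, MEK and GSK inhibition, opposite in sign to Gbx2. The other 4 had -0.04, 0.12, 0.03 and 0.01 with FGFR inhibitor. The Cxcr7 ratio on the control array was -3.95, below the reference.

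The named genes with ratios most like those of each member were found by the Euclidean distance over the 4 log2 ratios, among 4093 named genes for which Cy3 and Cy5 both passed the background flag throughout. For Tcfcp2l1 these were 4933403G14Rik at a distance of 0.30, 1700007K13Rik at 0.46 and Npl, a sialic acid lyase, at 0.49. The ratios of 4933403G14Rik were 2.92, 3.12, 3.28 and 3.29 in the order control, FGFR, MEK and GSK inhibitor, whereas those of Npl were 3.30, 3.08, 3.17 and 3.34, lower with FGFR and MEK inhibitor than in the control. For Prdm14 they were 5430403G16Rik at 0.28, 3830431G21Rik at 0.41 and 4930500J02Rik at 0.42, and the first of these had ratios of 2.23, 2.56, 2.42 and 1.94, highest with FGFR inhibitor and lowest with GSK inhibitor. For Gbx2 the nearest genes were farther away, with 6330514A18Rik at 0.70, 2210409E12Rik at 0.93 and 1700007K13Rik at 0.94. The ratios of 6330514A18Rik were 3.84, 3.70, 3.81 and 3.68, so that its ratio with FGFR inhibitor was not low as that of Gbx2 was, although its change in Cy3 alone was -0.76 there.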

How the data were processed

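Arrays of the NIA mouse design were scanned by the authors, who deposited Agilent Feature Extraction output with mean and background intensity of both channels, not normalized, and processed intensity corrected for background and dye. They also deposited a log10 table, whose entries, from the values, equal log10 of processed Cy3 over Cy5 with the mean log10 Cy5 of the 4 arrays added (median absolute difference 3.55e-05), with medians of 2.26, 2.25, 2.26 and 2.26 on the control, FGFR, MEK and GSK inhibitor arrays. The table's direction and scale follow from this match, and any centring beyond it is not known. The Methods name NIA Array Analysis.

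Each array held 43451 spots, of which 1417 were controls. Background was corrected by normexp (offset 50) on all spots in limma 3.58.1 (R 4.3.3), control spots and 3 or 4 outlier spots per array were left out, and log2 ratios were normalized by loess. The median Cy3 intensity over spots was 73.8, 79.0, 81.7 and 78.4 on the control, FGFR, MEK and GSK inhibitor arrays. Python 3.11.15, pandas 2.3.3, numpy 2.4.6 and matplotlib 3.10.9 served for all other values and the figures. The normexp and loess steps were tested on simulated data in which Cy5 did not change with Cy3.

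A change counted from 2-fold, if Cy3 passed the background flag on the arrays compared. The spread is 1 robust SD within each of 20 groups by mean Cy3 of both arrays. Named genes are the members, list genes with a named probe, the 5 listed genes on each side of a member and the 3 nearest by distance of ratios; marker lists were added for cell types. Some list genes with a named probe are not reported here by name. Members and lists were chosen with earlier results of these data known. Other settings were median signals, no background subtraction, an offset of 16, processed signals, the log10 table, median centring, Aquantile, Cy3 alone, filters and thresholds of 1.5-fold and 4-fold. The number of arrays limits the precision.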

Additional observations from a re-analysis of the deposited data

How the results depend on the processing

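No paired analysis was possible because only 1 array was run per condition, and for that reason no array was left out. Of 139 values recomputed under the other settings, 33 could not differ by construction or repeat the processed signals, as the log10 table does. Of the remaining 106, 76 moved by less than the spread of genes of similar signal, the scanner error of a level or a factor of 1.5 for a count. The others follow, and the cause was not tested except where given. Aquantile leaves ratios as they are, and the background filters keep all members. Other probes of a member were not run, as no transcripts were given, and the log10 table gives no level against the reference.

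In Cy3 alone, quantile normalized, Tcfcp2l1 changed by 0.76, 0.76 and 1.10 with FGFR, MEK and GSK inhibitor, Prdm14 by 0.26 with MEK inhibitor, and Gbx2 by -2.34 and -0.66 with FGFR and MEK inhibitor. The processed Cy3 signal gave 0.80, 0.85 and 1.13 for Tcfcp2l1, 0.88 and 0.43 for Prdm14 with FGFR and MEK inhibitor, and -2.26 and -0.51 for Gbx2. The ratio of processed signals and the log10 table gave -0.070 and -0.070 for Prdm14 with MEK inhibitor and -0.19 and -0.19 for Gbx2 with FGFR inhibitor, where an offset of 16 gave -0.63. Median centring, which moved the median of all genes with MEK inhibitor from -0.011 to 0.10, gave 0.57 for Tcfcp2l1, 0.26 for Prdm14 and -0.062 for Gbx2 there.

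The median log2 ratio to the reference was 3.37 for Tcfcp2l1, 2.24 for Prdm14 and 3.79 for Gbx2. Median centring made it 2.99 for Tcfcp2l1 and 1.78 for Prdm14, and the processed signals 2.96 for Prdm14 and 4.48 for Gbx2. All 3 stayed at least 2-fold above the reference under every alternative run. The Cy5 range of Gbx2 was 1.35 after quantile normalization, from 2.31.

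With FGFR inhibitor, 2 members passed 1.5-fold, and 1 passed 2-fold in Cy3 alone and 1 with median centring, from 0. With GSK inhibitor 1 passed it in Cy3 alone, and list genes past 2-fold numbered 1 in Cy3 alone and 2 with the processed signals, from 0. Of 18 values between inhibitors under settings chosen after seeing the data, 11 moved by less than the spread. Of the other 7, Gbx2 with FGFR minus GSK inhibitor was -0.76 in the ratio, 0.037 with the processed signals and -2.24 in Cy3 alone, with FGFR minus MEK inhibitor -0.76, -0.085 and -1.67, and with MEK minus GSK inhibitor -0.57 in Cy3 alone. Tcfcp2l1 in Cy3 alone was -0.34 with FGFR minus GSK inhibitor and -0.33 with MEK minus GSK inhibitor.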
